A study of Mus musculus with 4 samples.

Results

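Replication-dependent histone genes encode the H1, H2A, H2B, H3 and H4 proteins that package newly copied DNA, and here they were all genes whose current mouse symbol begins with H2ac, H2bc, H3c or H4c and a number, or is one of H1f1 to H1f5. The RefSeq gene table lists 64 such genes, 43 of which had a probe, and they took 47 of the 39429 probes on the array. Of these, 44 probes of 40 genes were well above background in the same dye on at least 3 of 4 arrays and were tested. H1f3, H2ac21 and H2bc23 had a probe that was not, and 21 genes had no probe named through the table. The family is defined by name, but it was singled out with results of this comparison in view, so its ratios are given as a description and support no test of the family.

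The cells were C2C12, an established mouse myoblast line that fuses into multinucleated myotubes when serum is lowered. They were differentiated for 3 days with interferon-γ (IFN-γ) at 1 ng/ml or without cytokine, and the study asked how IFN-γ alters transcription during the formation of skeletal muscle cells. Each of 4 arrays carried labelled RNA from treated cells in Cy5 and from untreated cells in Cy3, made from 8 µg of total RNA, with no array in the other dye orientation. The treated cultures are labelled as biological replicates 1 to 4, no label says whether the controls were 4 separate cultures, and horse serum is given as 2% in the treatment protocol but as 10% in the sample source.

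Most messenger RNAs end in a poly(A) tail, but replication-dependent histone mRNAs normally end in a stem-loop that is bound by the protein Slbp. Their synthesis is tied to S phase, when the cell needs new histones for new DNA, and the mRNA is destroyed when replication stops. Cells that leave the cycle, as myoblasts do when they fuse, rely more on replication-independent variants such as H3.3 and H1.0, whose mRNAs are polyadenylated. A total RNA array reads stem-loop mRNA only as far as the labelling step copies it, and the labels do not name the primer of that step.

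Median spot intensities were 79.75 to 97 in Cy3 and 149.5 to 264 in Cy5, a gap in which the dye cannot be told apart from the treatment. Replicate 2 correlated least with the other arrays across tested genes, at 0.629 to 0.715 against up to 0.898 between the others. Of 10 myoblast and myotube markers, 8 were well above background in Cy3 on every array, including Myod1, Myog and Des. Of the markers of other cell types, 5 of 6 for fibroblasts, 4 of 7 for macrophages and leukocytes and 2 of 5 for endothelium were too, while Ptprc, Lyz2, Cdh5, Tek and Emcn were not. Treated over control, the muscle list had a median log2 ratio of −0.36, with 4 of 9 tested genes called lower and 1 (Myf5) higher, and array medians of −0.64 to −0.02. The fibroblast list had a median of 0.40, with 4 of 6 called higher and array medians of 0.30 to 0.48. Of all tested genes, 13.9% were called lower and 19.8% higher. In whole cultures, fewer cells of a kind and less RNA per cell cannot be told apart, and the part of such shifts in the histone ratios was not tested.

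Histone mRNA signal was mostly lower with IFN-γ. The median log2 ratio of treated over control was −0.46 for the 40 tested histone genes and 0.03 for all 15678 tested genes. Under median centring in place of loess it was 0.13, but there the median of all genes was 0.70, so that the histone median lay 0.56 under it. Of the 40 genes, 21 were called lower, which means an adjusted p under 0.05 in limma's fit across all genes (Benjamini-Hochberg), and 0 were called higher. In that fit 13.9% of all genes were called lower and 19.8% higher. Mean ratios were below 0 for 33 of the 40 genes and above 0 for 7, and 24 were below 0 on every array, as were 22.8% of all genes. At least 2-fold lower and called were 5 histone genes, H2ac4, H4c12, H4c4, H4c14 and H1f4, against 0.982% of all genes. With Feature Extraction's ratios or the authors' table there were 9, with H1f1, H2bc18, H4c11 and H4c3 added, under median centring 1 and with centring on tested genes 15.

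The array medians of the 40 genes were −0.44, −0.32, −0.39 and −0.35 for replicates 1 to 4, each under the all-gene medians of 0.02 to 0.04. The classes were far from uniform. The H4, H1 and H2A medians lay well under 0 on every array, whereas the H2B and H3 medians stayed near 0 after loess. Replicate 2 had the lowest of its 4 values in 20 of the 40 genes, and the same held for 39.3% of all genes.

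**Figure D1:**
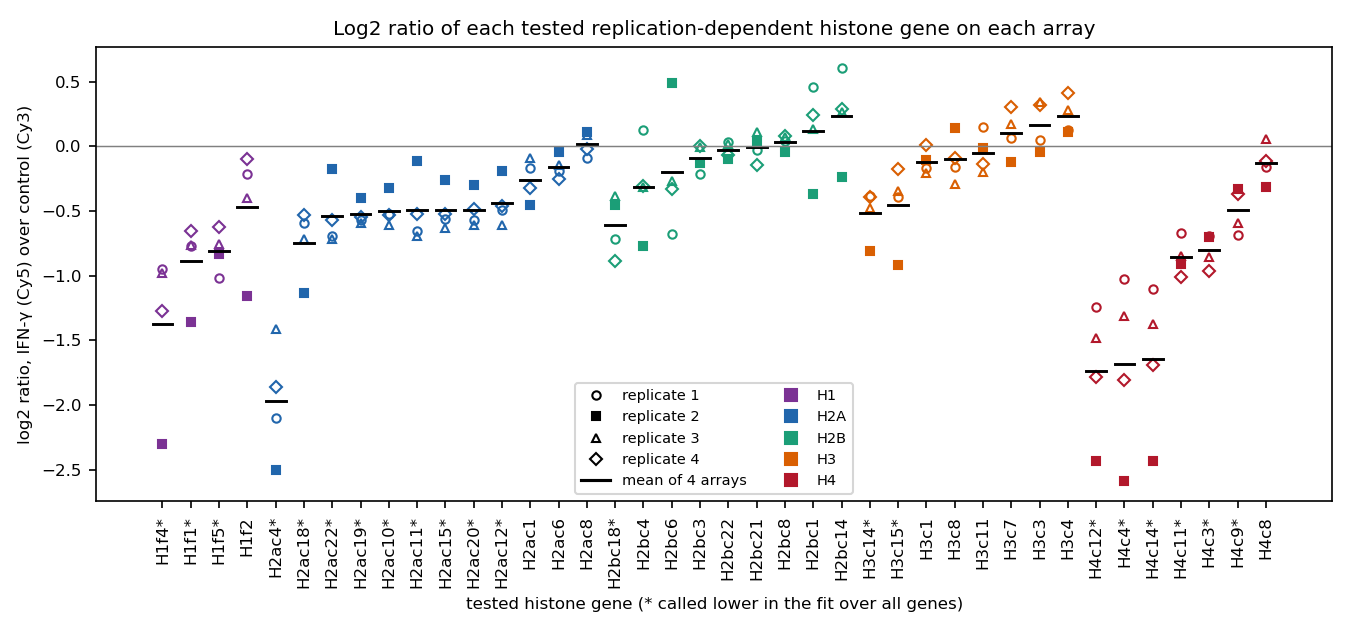
Log2 ratio of IFN-γ (Cy5) over control (Cy3) for each of the 40 tested histone genes, grouped by class (colour) along the x axis. Each symbol is 1 array, the bar is the mean of 4 arrays, and an asterisk marks a gene called lower. H2ac4, H1f4, H4c12, H4c4 and H4c14 form the lowest group, and 7 H2A genes lie together between −0.54 and −0.44.

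The linker histone H1 binds the DNA that enters and leaves the nucleosome. Of 4 tested H1 genes, 3 were called lower, beside 13.9% of all genes. The class median was −0.85, with array medians of −0.86, −1.26, −0.76 and −0.64. H1f4 had the lowest ratio, at −0.95, −2.30, −0.98 and −1.27 on replicates 1 to 4, a mean of −1.38 ± 0.63 (SD, n = 4). All 4 arrays put H1f4 below the control, replicate 2 by much the most. H1f1 was at −0.88 ± 0.32 and H1f5 at −0.81 ± 0.16. H1f2 had the highest ratio of the class and was not called, with −0.21, −1.16, −0.40 and −0.10, a mean of −0.47 ± 0.48. Its sign was the same on every array, but the value on replicate 2 made up most of its mean. Under median centring H1f5 had a ratio of 0.14 and H1f2 one of 0.53, both still under the all-gene median of 0.70, while H1f4 and H1f1 stayed negative at −0.40 and −0.33.

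H2A, which pairs with H2B in the nucleosome, had 12 tested genes, of which 9 were called lower, beside 13.9% of all genes. The class median was −0.49, with array medians of −0.56, −0.28, −0.61 and −0.52. H2ac4 had the lowest ratio of the whole family. Its log2 ratio was −2.10, −2.50, −1.41 and −1.86 on replicates 1 to 4, a mean of −1.97 ± 0.46 (n = 4) or 3.91-fold lower. Before normalisation, Cy3 intensities of H2ac4 were 1105, 471, 509 and 560.5 and Cy5 intensities 867, 191, 1102 and 557.5. Although Cy5 was the brighter dye on every array, the H2ac4 spot was dimmer in Cy5 than in Cy3 on replicates 1, 2 and 4. The next lowest H2A gene, H2ac18, was at −0.74 ± 0.27.

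A block of 7 H2A genes, H2ac10, H2ac11, H2ac12, H2ac15, H2ac19, H2ac20 and H2ac22, had nearly the same ratio. Their probes were among the brightest on the array, with Cy3 intensities of 15908.5 to 49337.5 and 0 saturated spots. The means ran from −0.54 ± 0.25 for H2ac22 to −0.44 ± 0.18 for H2ac12, with H2ac19 at −0.53 ± 0.09, H2ac10 at −0.50 ± 0.12, H2ac11 at −0.49 ± 0.26, H2ac15 at −0.49 ± 0.16 and H2ac20 at −0.49 ± 0.14. They moved together from array to array, between −0.70 and −0.49 on replicate 1, −0.40 and −0.11 on replicate 2, −0.72 and −0.59 on replicate 3 and −0.57 and −0.46 on replicate 4. H2A coding sequences are nearly identical between copies, so a probe can take up RNA of several genes, and these 7 ratios may not be 7 separate measurements. Under median centring all 7 had positive ratios, from 0.49 to 0.60, under the all-gene median of 0.70.

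The remaining H2A genes were not called. H2ac1 was at −0.26 ± 0.16 and H2ac6 at −0.16 ± 0.09. H2ac8 had the highest ratio of the class, with −0.09, 0.11, 0.09 and −0.02, a mean of 0.02 ± 0.09, and its arrays fell on both sides of 0. Its probe was not well above background in Cy3 on any array, so no fold is given, and its ratio was −0.57 under median centring and −1.24 when arrays were centred on the tested genes.

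H2B differed from its partner H2A in that 1 of 9 tested genes was called lower, near the 13.9% of all genes. Its median was −0.03, with array medians of 0.04, −0.13, 0.02 and −0.07. No test of the difference between the classes was made. H2bc18, in the cluster on chromosome 3, had the lowest ratio, at −0.71, −0.45, −0.38 and −0.89, a mean of −0.61 ± 0.23 (n = 4). H2bc14 had the highest, at 0.61, −0.24, 0.27 and 0.29, a mean of 0.23 ± 0.35. Only replicate 2 put H2bc14 below the control, and without that array it was called higher.

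Among H2B genes the arrays disagreed most on H2bc6, whose ratios of −0.68, 0.49, −0.27 and −0.33 gave a mean of −0.20 ± 0.49. H2bc4 was at −0.32 ± 0.36, H2bc1 at 0.12 ± 0.35, H2bc3 at −0.09 ± 0.10, H2bc22 at −0.03 ± 0.07, H2bc21 at −0.01 ± 0.11 and H2bc8 at 0.04 ± 0.06. H2bc4 and H2bc6 became positive under median centring (0.69 and 0.70), where the all-gene median was 0.70. H2bc8 was not well above background in Cy3 on any array, so no fold is given, and it was at −0.61 under median centring and −1.28 when arrays were centred on the tested genes. The probes of H2bc3, H2bc22, H2bc21 and H2bc8 were all under the 20th percentile of brightness among tested genes, so their ratios near 0 carry little information.

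H3 and H4 form the tetramer at the core of the nucleosome, yet their genes differed here. Of 8 tested H3 genes 2 were called lower, beside 13.9% of all genes. The class median was −0.07, with array medians of −0.06, −0.07, −0.20 and −0.04. H3c14 had −0.38, −0.81, −0.48 and −0.39 on the 4 arrays, a mean of −0.52 ± 0.20, and H3c15 a mean of −0.46 ± 0.32. Both lie in the cluster on chromosome 3. Under median centring both were positive, at 0.20 and 0.37, but under the all-gene median of 0.70. The other 6, on chromosome 13, were not called.

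H3c4 was the only tested histone gene above 0 on all 4 arrays. Its ratios were 0.12, 0.11, 0.28 and 0.41, a mean of 0.23 ± 0.14 (n = 4). Its probe was bright, with Cy3 intensities of 5873, 4194, 3427.5 and 3924 and Cy5 intensities of 23124, 13353, 27966.5 and 22793. H3c3 had 0.05, −0.04, 0.34 and 0.32, a mean of 0.17 ± 0.19, with replicate 2 on the other side of 0. H3c7 was at 0.11 ± 0.18, H3c11 at −0.05 ± 0.15, H3c8 at −0.10 ± 0.18 and H3c1 at −0.12 ± 0.09. None of these 6 separated from 0 beyond the spread of its arrays in limma's fit over all genes, but without replicate 2 H3c4 and H3c3 were called higher.

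H4 had the lowest class median with H1, at −0.86, and 6 of 7 tested genes were called lower, beside 13.9% of all genes. The array medians were −0.70, −0.91, −0.86 and −1.01. H4c12 was lowest, at −1.24, −2.43, −1.48 and −1.78 on replicates 1 to 4, a mean of −1.73 ± 0.51 (n = 4) or 3.33-fold lower. H4c4 had −1.02, −2.58, −1.31 and −1.80, a mean of −1.68 ± 0.68. H4c14, on chromosome 3, had −1.10, −2.43, −1.37 and −1.69, a mean of −1.65 ± 0.57. These 3 genes shared the order of their arrays, with replicate 2 lowest and replicate 1 highest.

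The remaining H4 genes moved less. H4c11 was at −0.86 ± 0.14, H4c3 at −0.80 ± 0.13 and H4c9 at −0.49 ± 0.17, all called lower. The gap to the lowest H4 genes depended on the processing. With Feature Extraction's ratios H4c11 was at −1.51 and H4c3 at −1.25, against −1.88 for H4c12. H4c8 had the highest ratio, at −0.16, −0.32, 0.06 and −0.11, a mean of −0.13 ± 0.15, and it was not called. Under median centring H4c9 and H4c8 were at 0.13 and 0.60, under the all-gene median of 0.70, while the other 5 H4 genes stayed called lower. As H4 copies encode the same protein and their coding sequences differ little, the assignment of a ratio to 1 copy is uncertain here too.

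**Figure D2:**
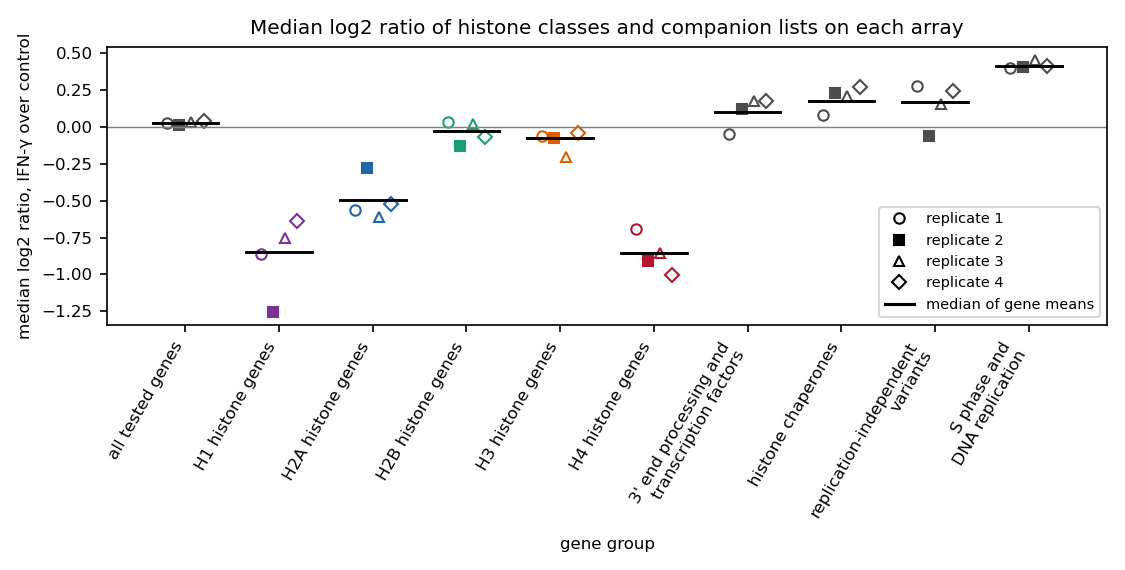
Median log2 ratio of IFN-γ over control for all tested genes, the 5 histone classes and 4 companion lists, with 1 symbol per array and a bar at the median of the gene means. H1, H2A and H4 lie below 0 on every array, H2B and H3 close to 0, and the S phase list above 0 on every array.

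Second probes were compared where a gene had them. H4c12 was at −1.27 ± 0.34 on its dimmer probe, H2ac15 at −0.33 ± 0.12 and H4c9 at −1.01 ± 0.21, all called lower when each probe was tested on its own. The dim second probe of H4c14 was at −0.19 ± 0.03 and was not called, against −1.65 for the bright one, so the size of the H4c14 ratio depends on the probe. Counted by probe, 24 of 44 histone probes were called lower and 0 higher, beside 12.6% lower and 16.5% higher of all tested probes.

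The promoters printed here are those of 5 H4 genes, from the lowest ratio (H4c12) to the highest (H4c8), and of H2ac4, H1f4 and H3c4, which sit at the ends of their classes. Each is the 130 bases before the transcription start from RefSeq on GRCm38.p6, read 5′ to 3′ on the strand of the gene. Capitals mark TATAAA (the TATA box), CCAAT (the CCAAT box, bound by NF-Y), ATTTGCAT (the octamer bound by Oct-1), AAACACAA (the H1 box) and GGTCCG (the core of H4 site II, bound by Hinfp), searched on both strands.
H4c12, chr13:21750554-21750683, minus strand, log2 ratio −1.73: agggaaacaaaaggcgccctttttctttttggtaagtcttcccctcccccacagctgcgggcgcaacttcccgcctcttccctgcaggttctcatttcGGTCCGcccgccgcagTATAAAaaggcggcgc
H4c11, chr13:21734904-21735033, plus strand, log2 ratio −0.86: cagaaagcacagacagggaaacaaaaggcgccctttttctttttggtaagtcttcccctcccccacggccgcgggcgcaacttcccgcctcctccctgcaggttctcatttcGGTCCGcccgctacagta
H4c4, chr13:23581438-23581567, plus strand, log2 ratio −1.68: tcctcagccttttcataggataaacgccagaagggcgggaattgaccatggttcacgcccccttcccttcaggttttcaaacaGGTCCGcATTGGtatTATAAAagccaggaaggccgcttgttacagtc
H4c3, chr13:23698459-23698588, minus strand, log2 ratio −0.80: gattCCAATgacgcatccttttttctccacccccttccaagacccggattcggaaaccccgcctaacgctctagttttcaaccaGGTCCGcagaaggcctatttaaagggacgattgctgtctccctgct
H4c8, chr13:23530914-23531043, plus strand, log2 ratio −0.13: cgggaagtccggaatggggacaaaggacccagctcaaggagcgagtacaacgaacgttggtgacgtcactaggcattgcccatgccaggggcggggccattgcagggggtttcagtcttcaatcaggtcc
H2ac4, chr13:23750958-23751087, plus strand, log2 ratio −1.97: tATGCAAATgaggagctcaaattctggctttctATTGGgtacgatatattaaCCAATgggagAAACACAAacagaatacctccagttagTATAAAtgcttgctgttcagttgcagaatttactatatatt
H1f4, chr13:23622559-23622688, minus strand, log2 ratio −1.38: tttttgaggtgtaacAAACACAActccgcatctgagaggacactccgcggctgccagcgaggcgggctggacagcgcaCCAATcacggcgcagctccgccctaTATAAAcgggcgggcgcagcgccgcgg
H3c4, chr13:23575633-23575762, plus strand, log2 ratio 0.23: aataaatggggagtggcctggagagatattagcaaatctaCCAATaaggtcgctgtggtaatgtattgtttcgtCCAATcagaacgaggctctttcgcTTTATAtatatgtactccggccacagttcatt

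Shifted by 14 bases, the stretches of H4c11 and H4c12 share 111 of 116 overlapping bases, and the ratios of these genes were −0.86 and −1.73. With Feature Extraction's ratios these genes were closer, at −1.51 and −1.88. GGTCCG starts 32 bases before the start of H4c12, 18 before that of H4c11, 47 before that of H4c4 and 46 before that of H4c3. In H4c8 the match begins 5 bases before the start and runs over it. In windows of 300 bases (250 before and 50 after the start), GGTCCG was present in 10 of 11 H4 windows and in 8.25% of all 32851 windows. H1f4 and H2ac4 both hold AAACACAA, as do H1f2, H1f5 and H2bc14, against 1.93% of all windows. These 5 genes ranged from −1.97 to 0.23, so genes with the same match had very different ratios.

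The other elements were also common in the family. TATAAA was found in 34 of 58 histone windows and in 13.6% of all, CCAAT in 50 of 58 and in 37.4% of all, and ATTTGCAT in 13 of 58, of which 7 were H2B and 6 H2A, and in 1.74% of all. Among windows of tested genes, ATTTGCAT was in 4 of 20 of those called lower and in 8 of 16 of those not called, and GGTCCG in 5 of 20 and 2 of 16. For the elements through which IFN-γ is known to act, TTCNNNGAA (the gamma-activated site) was in 2 of 58 windows, those of H1f4 and H2bc1, against 8.3% of all. The core of the interferon-stimulated response element, GAAA repeated after any 2 bases, was in 2 of 58, against 3.44% of all. A match says only that the letters are there, and H2bc4, H2bc21, H3c1, H3c7 and H4c14 had no window in the table.

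The genes lie in the large Hist1 cluster on chromosome 13 and the smaller Hist2 cluster on chromosome 3. Of 32 tested Hist1 genes 14 were called lower, with a median of −0.29, and of 8 tested Hist2 genes 7 were, with a median of −0.52. The share of all genes called lower was 13.9%. H2bc21 was the Hist2 gene that was not called. On chromosome 3 the neighbours H3c15, H2ac19, H2ac18 and H3c14 were all called lower, between −0.74 and −0.46. The promoters of H2ac18 and H2ac19 share a long stretch of bases, as do those of H3c14 and H3c15. These bases lie before the transcription start and do not show what a probe binds. On replicate 2 H2ac18 had its lowest ratio, −1.13, and H2ac19 its highest, −0.40. Whether a probe took up RNA of both genes of a pair was not tested, so these ratios may not be separate measurements. The classes are not equally spread over the clusters, so class and cluster cannot be fully told apart.

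Neighbours within a cluster often differed. Among 22 pairs of tested genes that follow each other in gene order, both were called lower in 6, 1 of the pair in 12 and neither in 4, and the median difference within a pair was 0.49. The widest gap was 1.91, between H3c4 at 0.23 and H4c4 at −1.68. Next to it came H2bc3 at −0.09 and H2ac4 at −1.97, a gap of 1.88. H4c9 and H2ac11, in contrast, were at −0.49 each, although the dimmer probe of H4c9 was at −1.01.

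The genes called lower had probes between the 28.4th and 98.8th percentile of brightness among tested genes. Of the 19 not called, 8 were under the 20th percentile, and 6 of them (H2ac6, H2ac8, H2bc3, H2bc22, H2bc21 and H2bc8) were not well above background in Cy3 on all 4 arrays. The brightest genes that were not called were H3c4, H2bc4, H3c3 and H1f2. Locus length also moved with the calls. The 4 tested genes with an annotated locus over 1000 bases (H2bc4, H2bc6, H2bc21 and H2bc22), longer than a stem-loop transcript needs, had a median of −0.11 and 0 calls in limma's fit. The other 36 had a median of −0.49 with 21 calls. All 4 genes with a long locus are H2B genes, so locus length cannot be told apart from class. This grouping was chosen after the values were seen, and the part of length or brightness in the ratios was not tested.

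**Figure D3:**
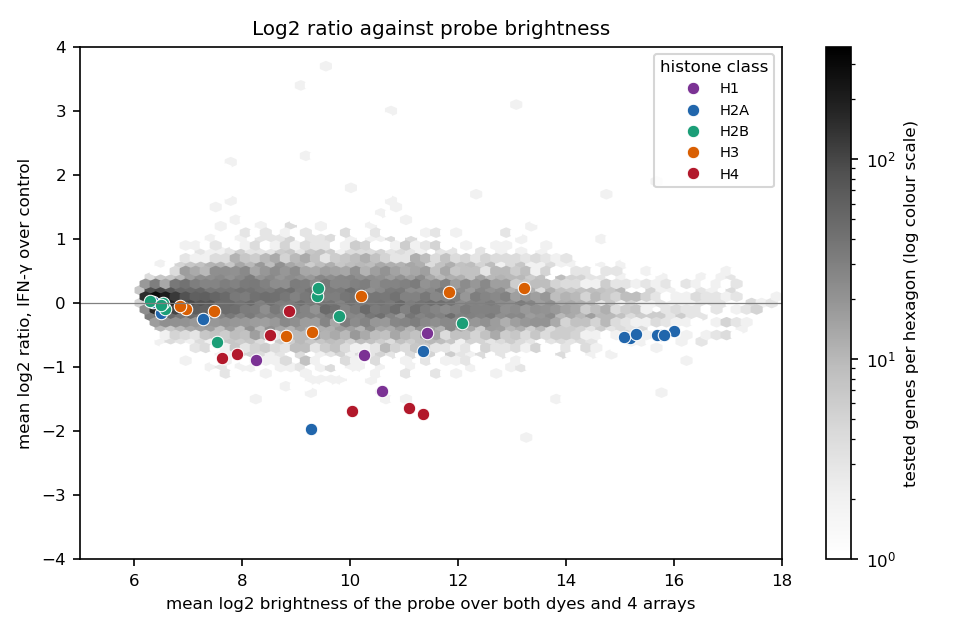
Mean log2 ratio of IFN-γ over control (y axis) against mean log2 brightness over both dyes and 4 arrays (x axis), with all tested genes as grey hexagons shaded by number on a log scale and histone genes as coloured points. The 7 bright H2A genes sit at the right between −0.54 and −0.44, H2ac4 and 3 H4 genes lie lowest at middle brightness, and several H2B genes lie at the dim end near 0.

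Relative to all genes, the family kept its place under every scaling tried. The histone median minus the all-gene median was −0.45 to −0.56 over the main processing and 12 alternatives, and 32 to 34 of 40 genes (29 of 34 where both dyes had to be above background) lay under the all-gene median. The order of the classes did depend on the scaling. H2B lay 0.05 under the all-gene median after loess, but 1.08 under it with either form of centring. With centring on the tested genes, the dim probes of H2bc3, H2bc8, H2bc21 and H2bc22 were at −1.14 to −1.28. Where both dyes had to be above background, the median of the 5 H2B genes left was 0.21 under the all-gene median. H3 moved from 0.10 under it to 0.42 under it, and to 0.26 with Feature Extraction's ratios. H2A, by contrast, moved from 0.52 under it to 0.20 under it. H4 lay 0.83 to 1.53 and H1 0.79 to 1.10 under it in the settings tried.

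**Figure D4:**
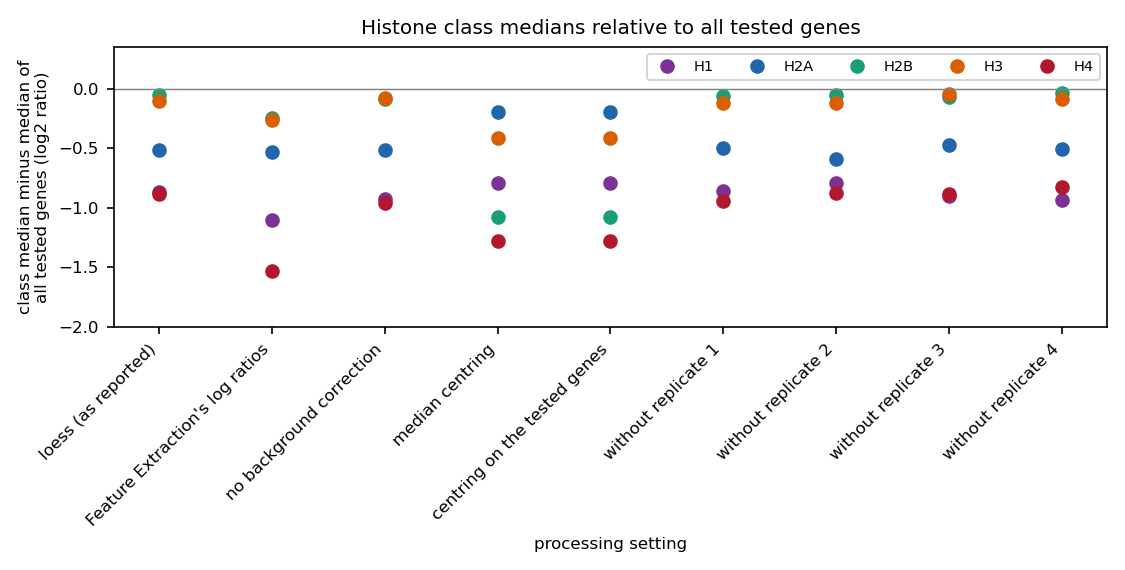
Median log2 ratio of each histone class minus the median of all tested genes (y axis) under 9 processing settings (x axis), with 1 coloured point per class. H4 and H1 lie at −0.79 or lower throughout, whereas H2B moves from near 0 to −1.08 under the 2 forms of centring. Several H2B genes had dim probes near background in Cy3.

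Genes of S phase and DNA replication mostly moved the other way. Of 29 on the list, 22 were called higher and 0 lower, where 19.8% and 13.9% of all genes were. The list had a median of 0.42, which was positive in every setting tried. Mcm4, part of the helicase that opens DNA at the fork, rose by 1.11 ± 0.28 (n = 4), and Uhrf1, which reads hemimethylated DNA behind the fork, by 1.09 ± 0.51, or 0.63 as the mean of its 2 probes. Gins1 and Gins2, which join the helicase, rose by 0.76 ± 0.18 and 0.70 ± 0.15. Rrm2, the small subunit of ribonucleotide reductase, was at 0.19 ± 0.12 and was not called. On each array the S phase median lay between 0.40 and 0.46 and the histone median between −0.44 and −0.32.

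Of 22 tested factors for transcription and 3′ end processing of histone mRNA, 6 were called higher and 1 lower, with a median of 0.10, where 19.8% and 13.9% of all genes were called. Slbp, which binds the stem-loop, rose on every array, at 0.41, 0.53, 0.78 and 0.85, a mean of 0.64 ± 0.21 (n = 4). Eri1, a 3′ exonuclease that trims histone mRNA ends and acts in their decay, rose by 0.62 ± 0.15, Casp8ap2, a component of histone locus bodies, by 0.45 ± 0.30 and Nfya, a subunit of the CCAAT-binding factor, by 0.39 ± 0.15. Sympk, a scaffold of the cleavage complex, was called lower at −0.39 ± 0.08. Under median centring it was at 0.61, where the all-gene median was 0.70. Pou2f1, which encodes Oct-1, was at −0.22 ± 0.68, with replicate 2 above 0 and the other arrays below, and was not called.

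Histone chaperones, which carry new histones to DNA, had 11 of 28 called higher and 0 lower, with a median of 0.18. Of all genes, 19.8% were called higher and 13.9% lower. Asf1b rose by 0.70 ± 0.21, Hjurp, the chaperone of the centromeric H3 variant, by 0.69 ± 0.17 (0.36 as the mean of its 3 probes), Set by 0.58 ± 0.27 and Nasp by 0.58 ± 0.28. Npm1 was at 0.15 ± 0.34 (0.43 as the mean of its 4 probes) and was not called. Asf1b and Nasp handle the H3 and H4 proteins. In the same RNA the tested H4 genes had a median of −0.86 and the tested H3 genes one of −0.07.

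Of 11 tested replication-independent variants, 3 were called higher and 1 lower, shares near the 19.8% and 13.9% of all genes, with a median of 0.17. H1f0, the linker histone of differentiated and resting cells, rose at 0.86, 1.30, 0.50 and 1.02, a mean of 0.92 ± 0.33 (n = 4). The 4 tested replication-dependent H1 genes had a median of −0.85. Cenpa, the centromeric H3, rose by 0.67 ± 0.17 and H3f3b, which encodes H3.3, by 0.52 ± 0.18. H2aj was called lower at −0.48 ± 0.08, close to the bright H2A genes. Like them it was positive under median centring, at 0.55, where the all-gene median was 0.70. The lower call of H2aj rests on the brighter of its 2 tested probes, and the mean over both probes was 0.04. Not called were H2az2 at −0.19 ± 0.13, H2ax at −0.12 ± 0.16, Macroh2a2 at 0.07 ± 0.09, H2az1 at 0.17 ± 0.16, H3f3a at 0.17 ± 0.21, H1f10 at 0.19 ± 0.09 and Macroh2a1 at 0.21 ± 0.26.

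Genes that once carried Hist names but have other symbols now are not counted in the family. H4f16 was called lower, at −1.07, −1.65, −1.18 and −1.42, a mean of −1.33 ± 0.26 (n = 4), within the range of the H4 genes. H2aw was at −0.39 ± 0.38 and H1f6 at −0.12 ± 0.22, and neither was called. H2bu2, H3f4, H4bc24, H2bu1-ps and H2af-ps2 had no tested probe.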

How the data were processed

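Feature Extraction 10.7.3.1 (Agilent) was the authors' tool for the deposited spot intensities, per the submitters' processing notes. The file headers also give median local backgrounds, detection flags and a deposited log10 ratio of Cy5 over Cy3 for 43020 non-control spots per array. Per the labels' design text, values were then log2 transformed in GeneSpring GX, filtered on flags and tested unpaired, keeping changes past a fold change of 2 after Benjamini-Hochberg correction. The value table the authors deposited is in log2: its slope on the log10 ratios was 3.32 on every array, with column medians of −0.125 to −0.105, and its centring is unknown.

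Here median intensities were corrected with normexp (offset 50) and log2 ratios were loess-normalised within arrays (limma 3.58.1, R 4.3.3). Control spots had weight 0, spots flagged as outliers were dropped, and repeat spots of a probe were averaged. Through its accession in the RefSeq table, 26055 of 39429 probes received 1 symbol, 0 several and 13374 none, covering 19751 genes. A probe had to be well above background in the same dye on at least 3 arrays, and the brightest such probe stood for its gene. The mean ratio of 15678 genes was tested against 0 with lmFit and eBayes, two-sided, with Benjamini-Hochberg adjustment at 0.05. The fit was tested on simulated data. P-values measure the spread between arrays, part of which may be technical, and the number of arrays limits precision.

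The members and gene lists were chosen with earlier results of these data known. Every tested member is named, with values on each array for the highest and lowest of a class and for the member with the largest SD among those whose arrays differ in sign. Up to 4 called genes with the largest ratio and the brightest gene that was not called are named from each companion list, and all variants. Promoters are from RefSeq on GRCm38.p6, and 57 of 64 members had a window. The file headers name another build, so no probe coordinates are given. Alternatives covered background correction, normalisation, dim probes, the probe rule, the value table, the test and each replicate left out.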

Additional observations from a re-analysis of the deposited data

How the results depend on the processing

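With Feature Extraction's log ratios, the authors' table, no background correction, both dyes above background or no filter, 21 histone genes were called lower, the same genes as reported, and 0 higher. Tested singly, 4778 probes were higher and 3633 lower. The counts of all genes, 3104 higher and 2173 lower as reported, were 474 and 161 with the methods' t-test at 2-fold, and 281 and 154 at 2-fold in limma's fit. These 2 settings called 4 and 5 histone genes lower. Median centring, with 10510 genes higher, called 13 histone genes lower (7 of the reported 21) and 17 higher. The histone median was then 0.13 and the all-gene median 0.70. Of called genes 58.8% were higher as reported, 79.9% under median centring and 46.2% after centring on tested genes. The signs turned under median centring for H2ac20 (0.54), H2ac19 (0.51), H2ac18 (0.26), H2ac15 (0.55), H2ac22 (0.49), H2ac12 (0.60), H2ac11 (0.54), H2ac10 (0.54), H3c15 (0.37), H3c14 (0.20), H3c1 (0.08), H1f5 (0.14), H1f2 (0.53), H4c9 (0.13), H4c8 (0.60), H2bc6 (0.70), H2bc4 (0.69), H2ac8 (−0.57) and H2bc8 (−0.61). Centring on tested genes, with 4709 genes higher and 5478 lower, called 4 histone genes higher and 23 lower (13 of the reported 21), with a histone median of −0.54. It turned the signs of H2ac8 (−1.24), H2bc8 (−1.28), H2bc4 (0.01) and H2bc6 (0.03). H4c12, H4c4, H4c14, H4c11, H4c3, H2ac4 and H2bc18, of the reported 21, were called lower under both centrings, as were H2ac8, H2ac6, H2bc8, H2bc3, H2bc21 and H2bc22, and the cause of the other changes was not tested. Leaving out 1 array gave 1594 to 4060 genes higher, 927 to 2981 lower, 17 to 24 histone genes lower and 0 to 4 higher. The calls of H2ac22, H2ac11 and H3c15 were lost without replicate 1, 3 or 4, and that of H2ac12 without replicate 3 or 4. Without replicate 2, H2bc14, H3c4, H3c3 and H2bc1 were called higher and H1f2, H2ac6 and H2bc6 lower. Each array sets a treated against a control sample, so the fit of 1 group of ratios against 0 already pairs them by array. No further pairing was made. Probes near background limit what the dim H2A and H2B ratios show.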
